A study of Mus musculus with 4 samples.

Results

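The dendritic cell (DC) library and the T cell library of PBS-treated mice were set side by side. The aim was to describe which genes mark each cell preparation of the untreated tumour and which genes both share. Counts of genes typical of other cells were also read in each library, without a test of their source. Genes were joined on their identifier, and those with a symbol and at least 20 counts in either library were kept, which left 11364 of 21959 listed genes. Both preparations came from MC38 tumours, a transplanted mouse colon carcinoma, with PBS as the control treatment and cells taken 72 h after its second dose. One preparation was labelled as DCs and the other as CD3+ T cells. The treated counterparts came from mice given X-Ray+O-IMDQ, which the series names a radiotherapy-activated prodrug, and serve here as a second pair made of other libraries. The labels give no strain, sex, age or gate, and do not say whether animals were pooled.

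Each group had 1 library, so every value compares 2 libraries deposited in separate tables, not cell types or conditions, and no p-value can be given. The PBS DC library held 23797357 counts over 10791 genes with a count, and the PBS T cell library 18649824 over 12051. The 10 most abundant genes took 16.8% of the DC counts and 8.52% of the T cell counts. Ratios are of counts scaled by TMM, and the 95% interval of each is the Clopper-Pearson interval of the DC share of the gene's counts in both libraries, turned into a ratio. A call needed a 2-fold gap or more and an interval that, as log2, left out 0. These intervals, and the floor of 3 counts that a library at 0 allows, cover counting error only, because 1 library per group leaves no replicate error. No molecular identifiers are stated for the reads, which are then not independent molecules, so the intervals can be too narrow even for counting error. Counts are given for the DC library first and the T cell library second, log2 ratios are DC over T, and FPKM, scaled for gene length and depth, compares genes of unequal length. In bulk RNA, fewer cells of a type and less RNA per cell cannot be told apart.

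T cells recognise peptides through the T cell receptor, whose signal passes through the CD3 chains and the zeta chain Cd247, with CD8 or CD4 binding MHC class I or class II beside it. DCs and macrophages take up material, cut it with lysosomal proteases and show the peptides on MHC class II. Transcription of class II genes depends on the coactivator Ciita, which is held at their promoters by RFX, CREB and NF-Y factors. In tumours, conventional DCs (cDC1 and cDC2) lie among monocytes and macrophages that share class II, Itgax and many surface receptors with them.

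Promoters of some class II genes are shown because every measured class II gene lay on the DC side, and those of Cd3e and Cd247 stand for the T cell side. Each line gives the 150 bases before the start of the gene in RefSeq, build GRCm38.p6, 5′ to 3′ on the gene's own strand. Capitals in the class II lines mark ATTGG, the NF-Y core, or CCAAT, its reverse complement. Capitals in the last pair of lines mark ACTTCCT, the reverse complement of AGGAAGT, a core of PU.1 and other ETS factors. Every line printed holds its marked motif. The windows of Ctss, Ifi30, H2-DMa, Cd3d, Cd3g and Cd8a held no copy of the motif sought in them and are not printed.
H2-Aa, chr17:34287824-34287973, minus strand: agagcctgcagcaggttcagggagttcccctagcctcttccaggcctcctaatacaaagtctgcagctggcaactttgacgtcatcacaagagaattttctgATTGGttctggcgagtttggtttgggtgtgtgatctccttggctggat
H2-Eb1, chr17:34305717-34305866, plus strand: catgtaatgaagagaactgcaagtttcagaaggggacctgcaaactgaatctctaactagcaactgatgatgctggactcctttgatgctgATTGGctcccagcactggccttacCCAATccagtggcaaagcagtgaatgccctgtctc
H2-DMb1, chr17:34153041-34153190, plus strand: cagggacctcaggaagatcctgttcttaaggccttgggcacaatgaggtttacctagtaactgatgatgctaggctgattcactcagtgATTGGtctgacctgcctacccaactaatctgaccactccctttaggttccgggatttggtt
H2-DMb2, chr17:34145099-34145248, plus strand: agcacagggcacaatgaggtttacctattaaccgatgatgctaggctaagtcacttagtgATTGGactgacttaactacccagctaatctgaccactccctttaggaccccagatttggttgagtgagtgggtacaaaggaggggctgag
H2-Oa, chr17:34092229-34092378, plus strand: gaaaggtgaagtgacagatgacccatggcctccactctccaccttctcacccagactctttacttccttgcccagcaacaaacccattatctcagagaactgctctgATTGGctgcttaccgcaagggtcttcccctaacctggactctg
H2-Ob, chr17:34238755-34238904, plus strand: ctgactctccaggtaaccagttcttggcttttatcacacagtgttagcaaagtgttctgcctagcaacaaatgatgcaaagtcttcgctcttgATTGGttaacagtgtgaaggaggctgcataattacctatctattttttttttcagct
Cd3e, chr9:45009612-45009761, minus strand: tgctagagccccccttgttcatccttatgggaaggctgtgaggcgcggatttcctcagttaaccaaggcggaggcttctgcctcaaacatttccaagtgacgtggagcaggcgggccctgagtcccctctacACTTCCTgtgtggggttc
Cd247, chr1:165788531-165788680, plus strand: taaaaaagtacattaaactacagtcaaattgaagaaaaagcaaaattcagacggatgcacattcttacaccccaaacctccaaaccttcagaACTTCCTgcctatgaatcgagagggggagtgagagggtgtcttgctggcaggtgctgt

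In these class II windows ATTGG began 48 bases before the start in H2-Aa, 59 in H2-Eb1, 61 in H2-DMb1, 90 in H2-DMb2, 43 in H2-Oa and 57 in H2-Ob, each time on the gene's strand. H2-Eb1 had a further copy on the other strand, 35 bases before the start. Of 13 class II genes, 10 matched a RefSeq promoter and 8 of those held ATTGG on the gene's strand within 300 bases, against 22.1% of all 32851 promoters. Of the 4 matched CD3 and zeta genes 0 held ATTGG on either strand, and 3 held AGGAAGT, against 2 of the 10 class II genes and 9.35% of all promoters. TGTGGT, the RUNX core, was in 0 of these 4 and in 16.8% of all promoters. Searched on both strands, ATTGG was in 37.4% of promoters of genes called for the DC library and 37.7% of those called for the T cell library, and AGGAAGT in 10.7% and 8.93%. A match is a description of letters and not a binding site, and the annotation builds of the promoters (GRCm38.p6) and of the counts (GRCm39, per the submitters' processing notes) differ.

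Among the genes compared, 2906 (25.6%) were higher in the DC library, 3949 (34.8%) were higher in the T cell library and 4509 (39.7%) were called for neither, so 60.3% were called either way, and the median log2 ratio was -0.17. With total counts in place of TMM all log2 ratios moved by -0.53, and the split became 2171 DC and 4979 T calls, so that DC calls made up 30.4% of calls in place of 42.4%. Of the DC calls 512 had 0 counts in the T cell library, and of the T calls 1127 had 0 in the DC library. For a gene at 0 in 1 library, "at least" gives the fold at the floor of 3 counts, which is a larger fold than the 95% limit, and the gene enters a list median at that floor. With 20 counts required in both libraries 1952 DC and 2108 T calls were left, and the genes at 0 drop out of the lists below, so that TCR complex calls went from 4 to 2, cytotoxic calls from 20 to 9, and cDC1 calls from 11 to 4. At least 64-fold apart were 399 DC and 492 T genes. The genes called for the DC library held 52.6% of all its counts, while those called for the T cell library held 30.4% of its counts.

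**Figure D1:**
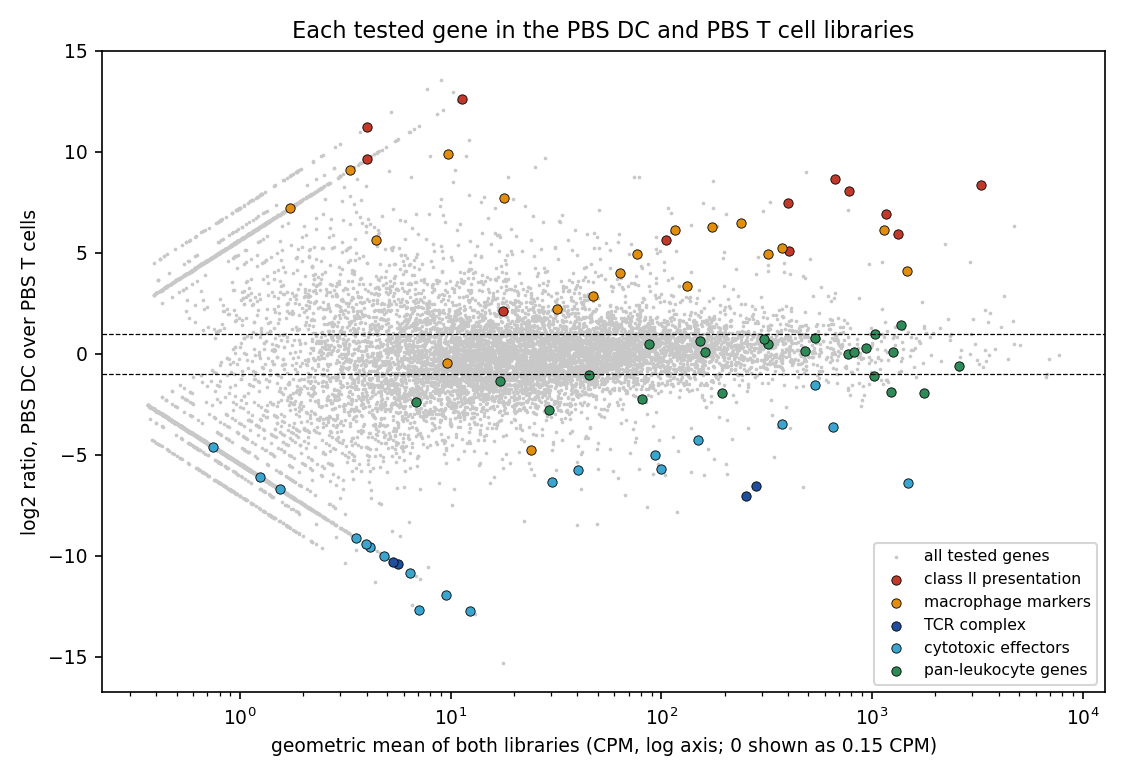
The log2 ratio of DC over T counts (vertical axis) is plotted against the geometric mean level of both libraries in CPM (horizontal log axis) for each of the 11364 genes, with 5 gene lists coloured and dashed lines at 2-fold. Class II and macrophage genes lie mostly above the dashed lines, TCR complex and cytotoxic genes below them, and pan-leukocyte genes between them; the straight edges are genes with few or no counts in 1 library.

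The T cell receptor complex was read almost wholly from the T cell library. All 4 measured members were higher there, with a median log2 ratio of -8.67, and together they took 0.728% of the T cell counts. Cd3d, a CD3 chain, had 434 and 64986 counts, and it was 133-fold higher in the T cell library at 1919.9 against 10.05 FPKM. Cd3g (chromosome 9, 44880870 to 44891729), another chain, had 576 and 61808 counts and was 94.96-fold higher. Cd3e (chromosome 9, 44910038 to 44920925), a chain that common CD3 antibodies bind, had 0 and 4266 counts, which makes it at least 1258-fold higher. Cd247, the zeta chain, had 0 and 4689 counts and was at least 1383-fold higher. Within the 1 complex, Cd3d and Cd3g had counts in the DC library while Cd3e and Cd247 had none.

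Of the coreceptors, the CD8 genes were high in the T cell library and Cd4 was near absent. Cd8a had 1 and 46523 counts and 686 FPKM in the T cell library, with a log2 ratio of -15.33 (interval -20.63 to -12.85), the lowest ratio of all genes compared. Cd8b1, the beta chain, had 517 and 36161 counts and was 61.9-fold higher in the T cell library. Cd4 had 0 and 17 counts, too few to enter the comparison, at 0.226 FPKM in a library labelled only by CD3. The treated T cell library held 252 Cd4 counts beside 47563 for Cd8a.

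Genes that carry the receptor signal followed the complex: 20 of 22 were higher in the T cell library, with a median of -6.02. Sh2d2a, an adaptor of T cell signalling, had 947 and 104100 counts and was the signalling gene with the most counts. Lck, the kinase that starts the signal, had 607 and 30060 counts and was 43.8-fold higher, while Lat, the membrane scaffold, had 121 and 26791 counts and was 196-fold higher. Zap70, the kinase that binds the CD3 chains, had 255 and 8755 counts and was 30.4-fold higher. Themis and Ubash3a, regulators of the same pathway, had 0 counts in the DC library and 4015 and 4753 in the T cell library. The members called for neither library were Fyn, a kinase of many blood cells, at -0.90, and Lcp2, the adaptor SLP-76 that myeloid cells also use, at -0.39.

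All 20 cytotoxic effector genes were higher in the T cell library, and they summed to 2.80% of its counts. Nkg7, a granule membrane protein of killer cells, was the most abundant gene of the library, with 3235 and 304640 counts, 17872 FPKM and 1.63% of its counts. Gzmb, the granzyme that cleaves caspases, had 0 and 23002 counts and was at least 6785-fold higher. Prf1, the pore-forming perforin, had 0 and 13630 counts and was at least 4020.4-fold higher. Ifng, the cytokine interferon gamma, had 0 and 3456 counts, and Fasl, a death ligand, had 1 and 7447 counts with a log2 ratio of -12.69 (interval -17.99 to -10.21). Of the list, 10 members had 0 counts in the DC library. The smallest gaps were in Ccl5, a chemokine, with 3684 and 51224 counts, Klrd1, with 2206 and 28011 counts, and Klrk1, the receptor NKG2D, with 6184 and 20747 counts, which were 12.3, 11.2 and 2.97-fold higher in the T cell library. Gzmd, Gzme, Gzmf and Gzmg are near-identical neighbours, so how reads were split among them is uncertain.

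Inhibitory receptors of activated T cells were divided. Of 11 members 6 were higher in the T cell library, 1 was higher in the DC library and 4 were neither. Pdcd1, which encodes PD-1, had 257 and 18792 counts, Lag3 had 42 and 16829 counts, Tigit had 232 and 16033 counts and Ctla4 had 0 and 6944 counts, which were 64.7, 355, 61.2 and at least 2048-fold higher in the T cell library. Havcr2, which encodes TIM-3, had 2573 and 4781 counts and Entpd1, the ectoenzyme CD39, had 6320 and 3773 counts, and both were present in both libraries and called for neither. Btla, an inhibitory receptor of several lymphoid and myeloid cells, was the member higher in the DC library, with 217 and 55 counts.

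Genes of naive and memory T cells were higher in the T cell library in 8 of 10 cases, at modest levels. Tcf7 and Lef1, transcription factors of naive and stem-like T cells, had 0 DC counts and 650 and 472 T cell counts, which is 11.5 and 2.88 FPKM. Il7r, the IL-7 receptor, had 1891 and 6364 counts and was 2.98-fold higher. Ccr7, the lymph-node homing receptor of naive T cells and of migrating DCs, had 8296 and 16698 counts and was called for neither. T cell transcription factors gave 10 of 15 calls for the T cell library, among them Ets1 with 4 and 6821 counts and Tbx21, the factor T-bet, with 231 and 2348 counts.

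Of 12 regulatory T cell genes 10 were higher in the T cell library and 2 in the DC library. Foxp3, the defining factor, had 0 and 99 counts and 1.16 FPKM, while the abundant members were costimulatory receptors that activated CD8 cells also carry, such as Tnfrsf9 with 1419 and 20769 counts, Icos with 648 and 18993 counts and Tnfrsf4 with 117 and 17073 counts. The members called for the DC library were Capg, an actin-capping protein of phagocytes, with 144464 and 36058 counts, and Il10, with 504 and 46 counts. Among T cell cytokine and chemokine receptors 8 of 12 were higher in the T cell library. Cxcr6, a receptor of tissue-resident T cells, had 0 and 25481 counts and was at least 7516-fold higher, and Il2rb, a chain of the IL-2 and IL-15 receptors, had 361 and 23521 counts. The members higher in the DC library included Ccr2, which draws monocytes to inflamed tissue, with 5860 and 2755 counts, and Cxcr4 with 87 and 17 counts.

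**Figure D2:**
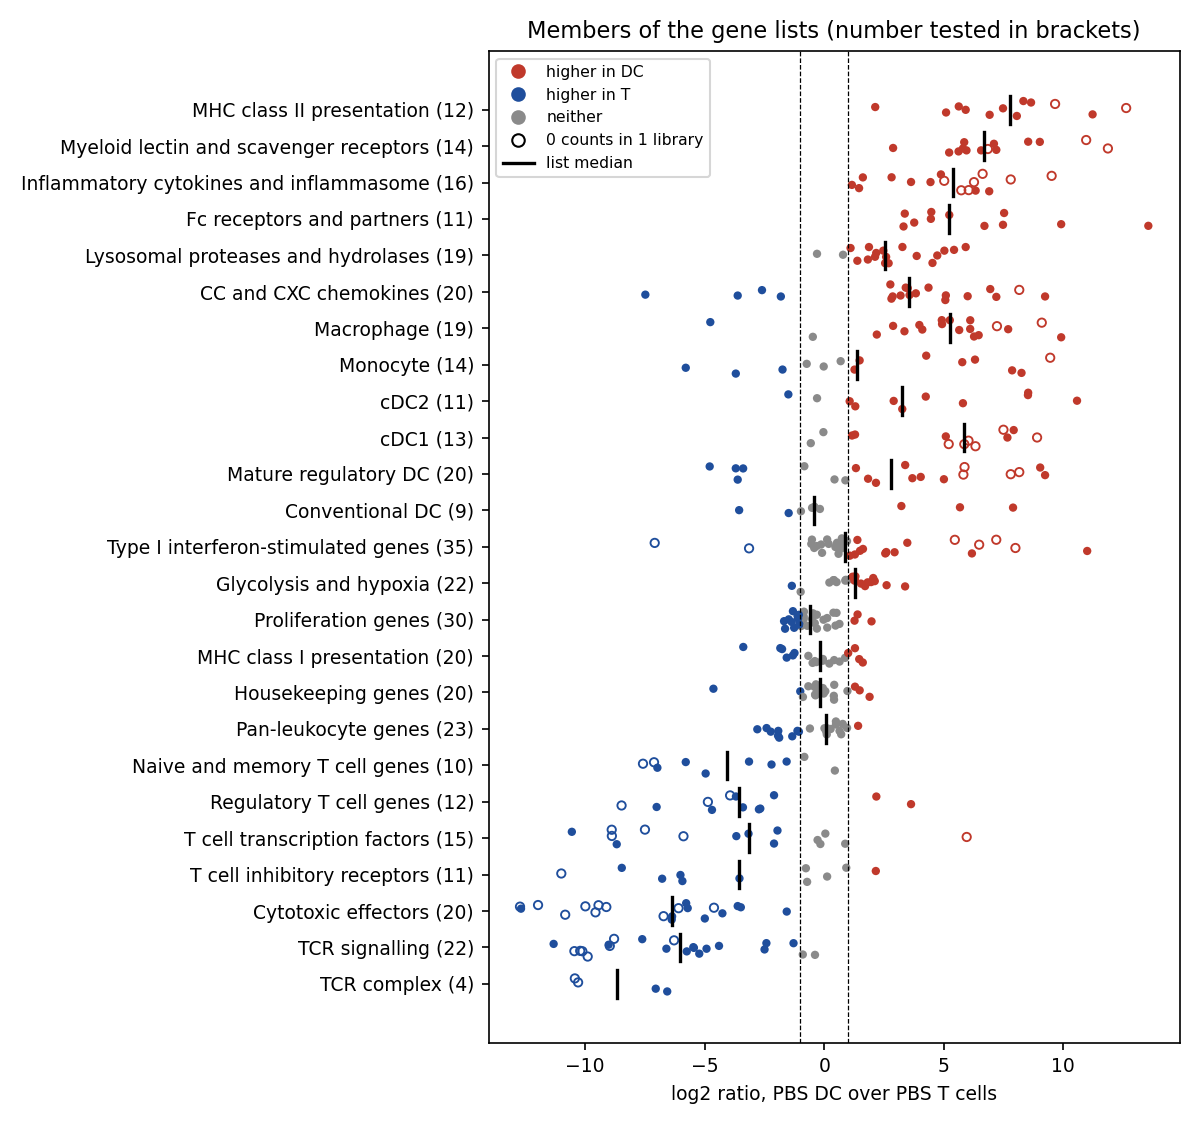
Each point is the log2 ratio of DC over T counts of 1 list member (horizontal axis), with lists as rows, the number of members compared in brackets, a black bar at the list median, dashed lines at 2-fold and open circles for members with 0 counts in 1 library, drawn at their bound. The T cell lists drawn lie left with medians from -8.67 to -3.17, myeloid lists lie mostly right up to a median of 7.77 for class II, and the conventional DC list has its median at -0.41.

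On the DC side, class II presentation was the leading group. All 12 measured members were higher in the DC library, with a median of 7.77, and the list took 9.81% of the DC counts and 0.0798% of the T cell counts. H2-Ab1 (chromosome 17, 34476663 to 34488393), a class II beta chain, had 1170633 and 4112 counts and was 322-fold higher, at 19156 against 85.9 FPKM. H2-Aa, its alpha partner, had 250588 and 1064 counts and was 266-fold higher. H2-Eb1, the beta chain of the second class II molecule, had 264206 and 743 counts and was 402-fold higher. Cd74, the invariant chain that escorts class II molecules, had 254798 and 2380 counts and was 121-fold higher.

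The peptide-exchange genes around them differed in their T cell counts. H2-DMa had 46979 and 1553 counts, H2-DMb1 had 105995 and 672 counts and H2-DMb2 had 16818 and 0 counts, and the last was at least 6335-fold higher at the floor of 3 counts. Ranked by the interval bound nearer 0, which was 12.33 on the log2 scale, H2-DMb2 came first of all DC genes. In the treated pair it had 788 and 277 counts, a log2 ratio of 2.55. H2-Oa and H2-Ob, chains of the molecule that holds H2-DM back, had 737 and 190 counts and 2142 and 0 counts. H2-Oa was 4.38-fold higher, the smallest ratio of the list. Ciita, the coactivator of class II transcription, had 2118 and 1 counts, a log2 ratio of 11.22 (8.75 to 16.53). The H2-DMb1 and H2-DMb2 genes are close copies, so the division of reads between them is uncertain.

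The label of the DC library was checked against lineage markers, and the defining genes of conventional DCs were near absent. Flt3, the growth factor receptor of the DC lineage, had 16 and 24 counts and Zbtb46, the transcription factor that separates conventional DCs from other myeloid cells, had 9 and 120 counts. Flt3 stood at 0.109 and 0.208 FPKM and Zbtb46 at 0.0445 and 0.756, and Zbtb46 was 11.8-fold higher in the T cell library. Itgax, which encodes CD11c, a surface protein of DCs and many macrophages, had 3982 and 481 counts and was 9.36-fold higher in the DC library. Of 9 conventional DC genes 3 were higher in the DC library, 2 in the T cell library and 4 in neither, with a median of -0.41 beside -0.17 for all genes. The shares of all genes were 25.6%, 34.8% and 39.7%. The second member higher in the T cell library was Spint2, a protease inhibitor, with 914 and 2899 counts, and Kmo, an enzyme of tryptophan breakdown, was on the DC side with 1087 and 24 counts.

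Markers of cDC1, the subset that cross-presents to CD8 T cells, were found in the DC library at low levels. Of 13 members 11 were higher in the DC library, with a median of 5.86. Xcr1, a chemokine receptor of this subset, had 213 and 0 counts, Clec9a, its receptor for dead cells, had 154 and 0 counts and Batf3, its transcription factor, had 479 and 0 counts. These are 2.01, 1.97 and 12.6 FPKM in a library where H2-Ab1 reached 19156. The more abundant members were the lysosomal enzymes Naaa and Ppt1, with 5556 and 31 counts and 5098 and 2575 counts. Irf8, a factor that lymphocytes also express, had 1866 and 3116 counts and Itgae, the integrin CD103 that tissue CD8 T cells also carry, had 63 and 73 counts, and neither was called.

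Genes of cDC2 were far more abundant. Of 11 members 9 were higher in the DC library and the list summed to 5023 CPM there against 152 in the T cell library. Mgl2, the lectin CD301b, had 67405 and 206 counts and was 369.8-fold higher, and Cd209a, the lectin DC-SIGN, had 9441 and 7 counts and was 1524-fold higher. Clec12a, an inhibitory lectin, had 7352 and 149 counts and Tnip3, an NF-kB inhibitor, had 6027 and 910 counts. Irf4, a factor of cDC2 and of activated T cells, was called against the list, with 320 and 1024 counts. Mgl2 and Cd209a are also made by some tumour macrophages and monocyte-derived cells.

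Genes of mature regulatory DCs split, with 13 of 20 higher in the DC library, 4 in the T cell library and 3 in neither. Cd83, a maturation marker, had 30750 and 2119 counts and Ccl17, a chemokine for CCR4, had 12285 and 23 counts, and the costimulatory genes Cd40, Cd80 and Cd86 had 2318, 1692 and 3388 DC counts against 5, 183 and 855. The members higher in the T cell library were Fscn1, an actin-bundling protein, with 16 and 190 counts, Relb, an NF-kB subunit, with 86 and 1264 counts, Il4i1 with 3 and 94 counts, and Ccl5, which is also in the cytotoxic list. Of 9 plasmacytoid DC genes 5 were higher in the T cell library and 1, Klk1 with 126 and 71 counts, in the DC library. Siglech, a surface marker of these cells, had 166 and 652 counts, and Bst2 and Irf7 were called for neither.

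Macrophage genes were abundant in the DC library. Of 19 members 17 were higher there, with a median of 5.25, and the list summed to 26376 CPM against 913, while 1 of 21 members had 0 DC counts. Arg1, the arginine-degrading enzyme, had 187939 and 3087 counts and was 68.8-fold higher. Spp1, the secreted osteopontin, had 120437 and 7928 counts and was 17.2-fold higher, and Cd68, a lysosomal glycoprotein of phagocytes, had 45932 and 1362 counts and was 38.1-fold higher. The complement genes C1qa, C1qb and C1qc, typical of tissue macrophages, had 19209 and 315 counts, 30298 and 445 counts and 44468 and 571 counts. Csf1r, the receptor macrophages need to live, had 5130 and 28 counts and Adgre1, the F4/80 antigen, had 1356 and 334 counts. By FPKM, C1qc stood at 968 and Csf1r at 37.3 in the library labelled as DCs, above Itgax at 34.8 and Flt3 at 0.109. Cx3cr1, a receptor of monocytes, macrophages and effector T cells, was called against the list, with 91 and 2800 counts. How far macrophage RNA sets the DC side of these comparisons was not tested.

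Monocyte genes gave a mixed picture, with 8 of 14 higher in the DC library, 3 in the T cell library and 3 in neither. Lyz2, the lysozyme of monocytes, macrophages and neutrophils, had 836671 and 11946 counts and the highest FPKM of the 2 libraries among the genes named here, 26716 in the DC library. Chil3, a secreted lectin of inflammatory monocytes, had 1859 and 0 counts, and Fn1, fibronectin, had 13891 and 287 counts. The members called for the T cell library included Ly6c2 with 2240 and 32907 counts and Plac8 with 1601 and 6069 counts, which effector T cells also express.

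**Figure D3:**
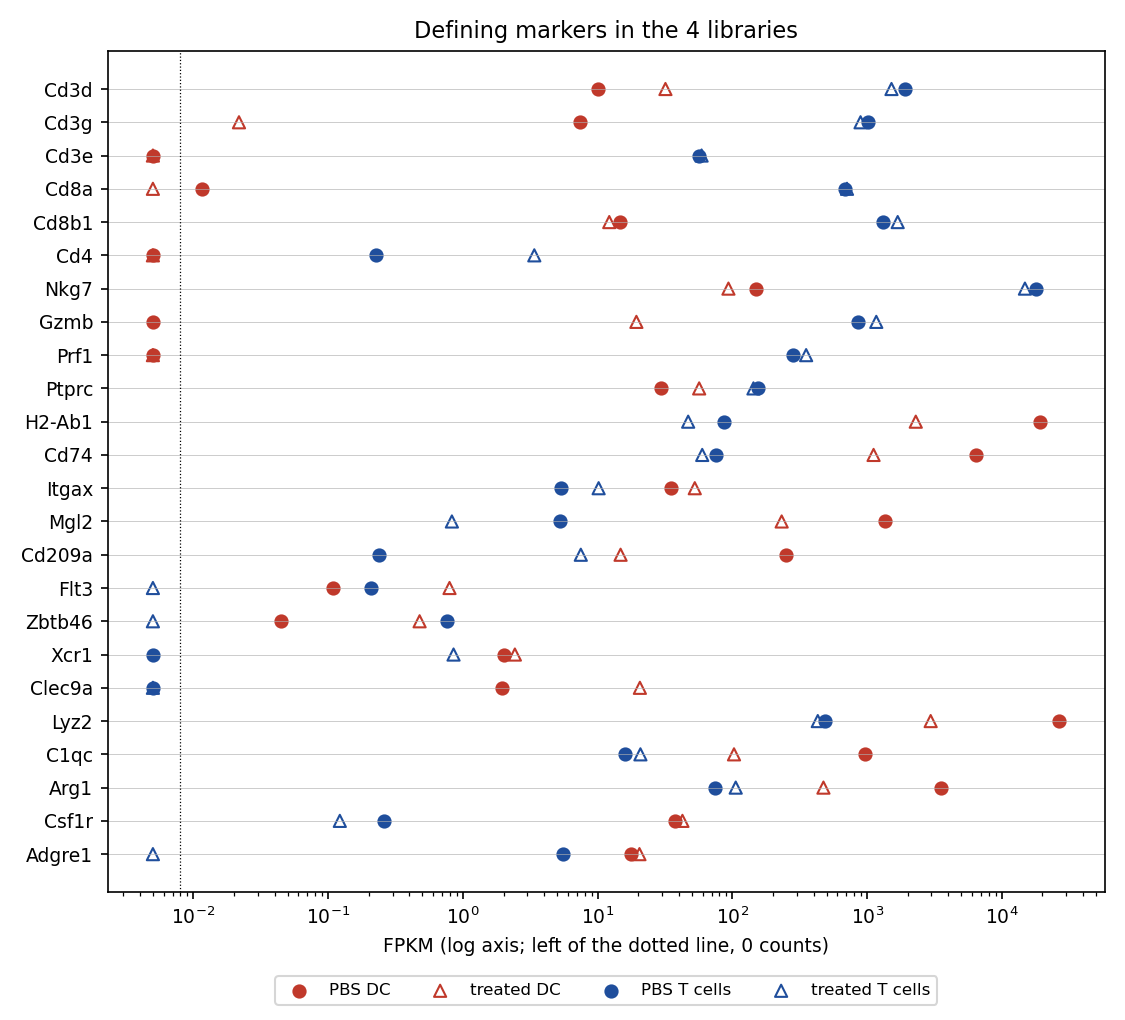
FPKM (horizontal log axis) of 24 markers (rows) in the PBS DC and T cell libraries (filled circles) and the treated DC and T cell libraries (open triangles), with values of 0 counts left of the dotted line. In the PBS DC library Lyz2, H2-Ab1 and Cd74 stand highest while Flt3 and Zbtb46 stand under 1 FPKM, and in the PBS T cell library Nkg7 and the CD3 and CD8 genes stand far above Cd4.

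Receptors by which phagocytes sense their surroundings were higher in the DC library with few exceptions. All 11 Fc receptor genes and partners were higher, with a median of 5.23. Fcgr2b, the inhibitory IgG receptor, had 88585 and 544 counts and Fcgr3, an activating one, had 41771 and 265 counts. Fcgr4 had 10664 and 1 counts, a log2 ratio of 13.56 (11.08 to 18.86), and Fcgr1, the high-affinity receptor, had 5963 and 7 counts. The Fcgr genes share sequence, which leaves the assignment of some reads uncertain. Fcer1g and Tyrobp, signalling adaptors in the same list, had 89924 and 4616 counts and 35965 and 1824 counts and were 22.0 and 22.3-fold higher.

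The 7 measured ITAM adaptors, which turn receptor binding into a kinase signal, divided between the libraries. Cd3d, Cd3g, Cd3e and Cd247 were higher in the T cell library, and Fcer1g, Tyrobp and Cd79b were higher in the DC library. Cd79b, a chain of the B cell receptor, had 986 and 10 counts, while its partner Cd79a had 0 and 7 counts. All 14 measured lectin and scavenger receptors were higher in the DC library, with a median of 6.70. Clec4n, the receptor Dectin-2, had 220647 and 481 counts and was 518-fold higher, and Cd14, the coreceptor for bacterial lipopolysaccharide, had 178473 and 1472 counts and was 137-fold higher. Clec7a, the receptor Dectin-1, had 42344 and 326 counts, and Msr1, a scavenger receptor, had 5275 and 0 counts.

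Of 18 Toll-like receptor and adaptor genes 14 were higher in the DC library, 0 in the T cell library and 4 in neither. Tlr2, a receptor for bacterial lipopeptides, had 3594 and 1 counts, a log2 ratio of 11.99 (9.51 to 17.29). Tlr4, the lipopolysaccharide receptor, had 602 and 37 counts, and Unc93b1, the chaperone of endosomal receptors, had 5110 and 682 counts. Tlr7, the receptor that imidazoquinoline agonists act on, had 142 and 105 counts and 1.46 and 1.38 FPKM, and was called for neither library. Tlr9, a sensor of DNA, had 281 and 0 counts.

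Among transcription factors of myeloid cells 13 of 18 were higher in the DC library. Spi1, which encodes PU.1, had 7970 and 421 counts and was 21.4-fold higher, and Irf5, a factor of inflammatory cytokine genes, had 4891 and 294 counts. The members called for the T cell library were Id2, a factor of both cDC1 and effector T cells, with 768 and 11112 counts, Relb, Irf4 and Zbtb46. Of 19 lysosomal genes 17 were higher in the DC library and 0 in the T cell library, with a median of 2.55. Ctss, the cathepsin that trims the invariant chain, had 204856 and 3833 counts, and Ctsc, which activates granzymes and other serine proteases, had 288429 and 7566 counts.

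Ctsb and Ctsz, further cathepsins, had 83032 and 16070 counts and 106802 and 5233 counts and were 5.84 and 23.1-fold higher. Of the phagocyte oxidase, which makes superoxide, 5 of 7 genes were higher in the DC library. Cybb, its catalytic chain, had 2068 and 144 counts and Cyba, the small membrane chain, had 145046 and 40582 counts. Ncf1 and Ncf4, cytosolic subunits, were 5.63 and 4.56-fold higher. The GTPase Rac2, which T cells also use, was 3.82-fold higher in the T cell library with 17953 and 77541 counts, and Rac1 was called for neither.

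All 16 inflammatory cytokine and inflammasome genes were higher in the DC library, with a median of 5.37, and 7 of them had 0 counts in the T cell library. Il1b had 43872 and 415 counts and was 119-fold higher, and Il1rn, the antagonist of the IL-1 receptor, had 32665 and 458 counts and was 80.6-fold higher. Tnf, which T cells make as well, had 2875 and 1184 counts and was 2.74-fold higher. Il12b, a chain that IL-12 and IL-23 share, had 592 and 0 counts, and Nlrp3, an inflammasome sensor, had 1938 and 0 counts. Ptgs2, the inducible prostaglandin synthase, had 4274 and 164 counts.

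Chemokine genes divided between the libraries, with 16 of 20 higher in the DC library and 4 in the T cell library. Those of the T cell side were Ccl5 with 3684 and 51224 counts, Ccl4 with 7135 and 49053 counts, Ccl3 with 1296 and 5157 counts and Xcl1, the ligand of the cDC1 receptor XCR1, with 15 and 3036 counts. Those of the DC side included the monocyte attractants Ccl2 and Ccl7, with 32916 and 5114 counts and 35105 and 2785 counts, and the ligand of CXCR6, Cxcl16, with 24410 and 224 counts. Ligand and receptor were called for opposite libraries for Cxcl16 and Cxcr6 and for Xcl1 and Xcr1, and for the same library for Ccl2, Ccl7 and their receptor Ccr2. Ccl24, an eosinophil attractant, had 25727 and 198 counts, and Cxcl9, a ligand of CXCR3, had 7640 and 135 counts.

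Of 7 myeloid growth factor receptors 5 were higher in the DC library. Csf2ra, Csf2rb and Csf2rb2, chains of the GM-CSF receptor and its relatives, were 26.0, 14.9 and 17.3-fold higher, and Csf3r, the G-CSF receptor, had 436 and 0 counts. Il3ra was called for the T cell library, with 14 and 234 counts. All 8 measured complement genes were higher in the DC library, led by properdin, Cfp, with 70331 and 585 counts. Of 12 lipid-handling genes 11 were higher in the DC library, among them Lgals3, a galectin, with 162680 and 59352 counts, and Apoe, a lipid carrier, with 34949 and 1308 counts, while Fabp4 had 0 and 23 counts. Among 12 immunosuppressive genes, 7 were higher in the DC library, 2, Tgfb1 with 234 and 609 counts and Il4i1, in the T cell library. Cd274, which encodes PD-L1, had 948 and 796 counts and was called for neither, as was Vsir, which encodes VISTA, with 2268 and 4389 counts.

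Genes far toward the DC library outside these lists, chosen by the interval bound nearer 0, had 0 to 3 counts in the T cell library. Pilra, an inhibitory receptor of myeloid cells, had 15662 and 0 counts and was at least 5899.7-fold higher, and its relative Pilrb2 had 4121 and 0 counts. Trem1, an amplifier of myeloid inflammation, had 13928 and 2 counts, a log2 ratio of 12.94 (11.09 to 15.99). Hfe, an iron regulator, had 6572 and 0 counts, and the SLAM family members Slamf8 and Slamf9 had 5986 and 0 counts and 4197 and 0 counts. Osm, the cytokine oncostatin M, had 11256 and 3 counts and F11r, a junctional adhesion molecule, had 7820 and 1 counts. Slc7a11, the cystine transporter, Dcstamp, a protein of cell fusion, and Pkib, an inhibitor of protein kinase A, had 0 T cell counts beside 3903, 3248 and 2930 DC counts. These genes were picked for their extreme ratios. In the treated pair all were again called for the DC library, but some with T cell counts. There Trem1 had 3314 and 377 counts, Osm 3695 and 345, Hfe 1041 and 298 and Pilra 2323 and 132. Slamf8, Slamf9, F11r, Dcstamp and Pkib had 0 counts in the treated T cell library.

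Toward the T cell library the genes furthest out that are not described above were Rgs16, a brake on G-protein signals, with 0 and 7646 counts, Gimap7, a GTPase of lymphocytes, with 0 and 4497 counts, and Ablim1, an actin-binding protein, with 1 and 6389 counts. Rgs16 was at least 2255-fold higher and Gimap7 at least 1326-fold higher. The Ablim1 log2 ratio was -12.46, with an interval from -17.77 to -9.99.

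Shared genes formed the third class of the comparison. The 15 most abundant genes called for neither library, ranked by the smaller FPKM, were led by Lgals1, galectin-1, with 125353 and 170857 counts, and Tmsb4x, the actin-binding thymosin beta 4, with 148896 and 178979 counts. They were 1.21 and 1.06-fold apart, at 5833 and 4564 FPKM in the DC library and 10145 and 6999.9 in the T cell library. Next came the ubiquitin gene Ubb, with 115497 and 97758 counts, and B2m, the light chain of MHC class I, with 52752 and 94610 counts. The others were Cox6b1, Sh3bgrl3, H3f3b, Cd52, Cox8a, Pfn1, H2-D1, Mif, S100a10, Clic1 and Ifitm1, of which Clic1, a chloride channel protein, was furthest apart at a log2 ratio of 0.70. The last by rank, Ifitm1, an interferon-induced membrane protein, still stood at 1166 and 1422 FPKM.

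Genes of all white blood cells were mostly shared. Of 23 pan-leukocyte genes 13 were called for neither library, 9 for the T cell library and 1 for the DC library. Of all genes 39.7%, 34.8% and 25.6% had these calls, so the T share was near that of all genes. The list median was 0.07 and became -0.45 with total counts. Ptprc, which encodes CD45, had 12749 and 53235 counts and was 3.70-fold higher in the T cell library, and Coro1a, an actin regulator of leukocytes, had 13707 and 33699 counts. Srgn, the granule proteoglycan serglycin, was the member higher in the DC library, with 44425 and 18815 counts. Cd53, a tetraspanin, had 15235 and 17128 counts and a log2 ratio of 0.01. Of 20 class I presentation genes 10 were called for neither, 6 for the T cell library and 4 for the DC library, shares near those of all genes (39.7%, 34.8% and 25.6%). H2-D1 and H2-K1, the class I heavy chains, had 82011 and 79958 counts and 55529 and 78919 counts. H2-T23, a nonclassical class I gene, was 3.58-fold higher in the T cell library and Calr, a chaperone of class I assembly, 3.06-fold higher in the DC library.

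Of 20 housekeeping genes 15 were called for neither library and of 23 actin cytoskeleton genes 17. Ppia, a prolyl isomerase, had 69529 and 81911 counts and Actb, the beta actin, had 94956 and 215217 counts, which is 2.01-fold higher in the T cell library. The medians of both lists, -0.17 and 0.23, change sign under some scalings. Of 82 ribosomal protein genes 56 were called for neither, 24 for the T cell library and 2 for the DC library, with a median of -0.58. These genes took 9.07% of the T cell counts and 3.98% of the DC counts. All 10 measured mitochondrially encoded genes were called for neither.

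Metabolic and response programmes had medians nearer 0 than class II, macrophage or cytotoxic genes. Of 22 glycolysis and hypoxia genes 13 were higher in the DC library and 1 in the T cell library, with a median of 1.27. Aldoa, an aldolase, had 107629 and 37262 counts and was 3.26-fold higher, Pkm, the pyruvate kinase, had 65038 and 30416 counts and was 2.42-fold higher, and Pdk1, an inhibitor of pyruvate oxidation, was higher in the T cell library with 28 and 81 counts. Of 23 oxidative phosphorylation genes 18 were called for neither. Ndufa4, a respiratory chain subunit, was the 1 member higher in the T cell library, with 2256 and 6928 counts.

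Of 35 type I interferon-stimulated genes, 16 had their higher level in the DC library and, in the T cell library, 2, beside 25.6% and 34.8% of all genes compared. Of the most abundant members Ifi47, an interferon-induced GTPase, was 2.43-fold and Ifi35 2.61-fold higher in the DC library, and Bst2, the tether that holds virus particles, and Lgals3bp were called for neither. Of the oligoadenylate synthetase family, which senses double-stranded RNA and was chosen after its values were seen, Oasl2 had 1811 and 1 counts, Oas1a had 3266 and 51 counts and Oasl1 had 678 and 0 counts. Ifit3b and Mx1 were the members called for the T cell library, with 0 and 463 counts and 0 and 30 counts. Proliferation genes had 10 of 30 members higher in the T cell library and 3 in the DC library, with a median of -0.61. Of all genes compared 34.8% were called for the T cell library and 25.6% for the DC library, so the T share was near that of all genes. Mki67, the Ki-67 antigen, had 428 and 494 counts and a log2 ratio of -0.03, while Rrm2, a subunit of ribonucleotide reductase, was 3.21-fold higher in the T cell library and Aurka, a mitotic kinase, 3.94-fold higher in the DC library. With a 4-fold threshold 0 proliferation genes were called.

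Immediate-early genes, which respond within minutes to stimulation or handling, gave 6 DC and 4 T calls of 18, beside 25.6% and 34.8% of all genes. Junb had 8975 and 41318 counts and was 4.07-fold higher in the T cell library, and Fos had 10638 and 4470 counts and was 2.69-fold higher in the DC library. Dusp1, a phosphatase that ends MAP kinase signals, had 56682 and 24597 counts and Ier3 had 4300 and 221 counts, both higher in the DC library. The list median was 0.11 and changes sign with total counts.

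Genes of the other cell type were read in each library from a few defining lists, keeping members called at home with at least 1000 counts there. A call needs a 2-fold gap, so this rule sets an upper limit on every percent below before any value is read. Members at nearer levels were left out, such as Lcp2, with 5336 and 7890 counts, at 76.4%. The medians below hold for the genes kept only. The T cell lists were the TCR complex, TCR signalling, coreceptors and cytotoxic effectors, and the myeloid lists were class II, macrophage, Fc receptor, lectin and scavenger receptor, and complement genes. Of 42 such T cell genes 15 had 0 counts in the DC library, 4 had 1 to 19 and 23 had 20 or more. Their median level in the DC library was 0.891% of the T cell level, and together they gave 22409 counts, or 0.0942% of the DC library. Of 53 myeloid genes 6 had 0 counts in the T cell library, 3 had 1 to 19 and 44 had 20 or more. Their median was 1.30% of the DC level, and they gave 44321 counts, or 0.238% of the T cell library.

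The ratio between libraries was not constant within either set. On the T cell side Cd3d reached 0.755%, Cd3g 1.05% and Cd8b1 1.62% of the T cell level in the DC library, whereas Cd3e and Cd247 had 0 counts and Cd8a stood at 0.00243%. Cd8a and Cd8b1 encode the 2 chains of 1 coreceptor and had 46523 and 36161 counts at home, but 1 and 517 in the DC library. Sh2d2a, the adaptor, reached 1.03%. The highest values among the genes kept were Fyb, an adaptor that myeloid cells also express, at 41.0%, and Klrk1 at 33.7%. Outside these lists Il21r, a cytokine receptor with 1121 and 2761 counts, reached 45.9%, also as a called gene under the same limit.

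On the myeloid side H2-Eb1 reached 0.249%, H2-Ab1 0.311%, H2-Aa 0.376% and Cd74 0.827% of the DC level in the T cell library. C1qa, C1qb and C1qc lay close together, at 1.45%, 1.30% and 1.14%, and Arg1 at 1.45%. Spp1 stood at 5.83%, Fcer1g at 4.54% and Tyrobp at 4.49%, the last pair being adaptors that activated lymphocytes can also express. The highest among the genes kept was Adgre1 at 21.8%, with 334 T cell counts. Outside these lists Ppt1 reached 44.7% and Ccr2 41.6%, also as called genes under the same limit. Msr1, Clec4e, H2-DMb2 and H2-Ob were among those with 0 counts. Whether these counts came from other cells, from free RNA or from expression in the labelled cells was not tested.

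**Figure D4:**
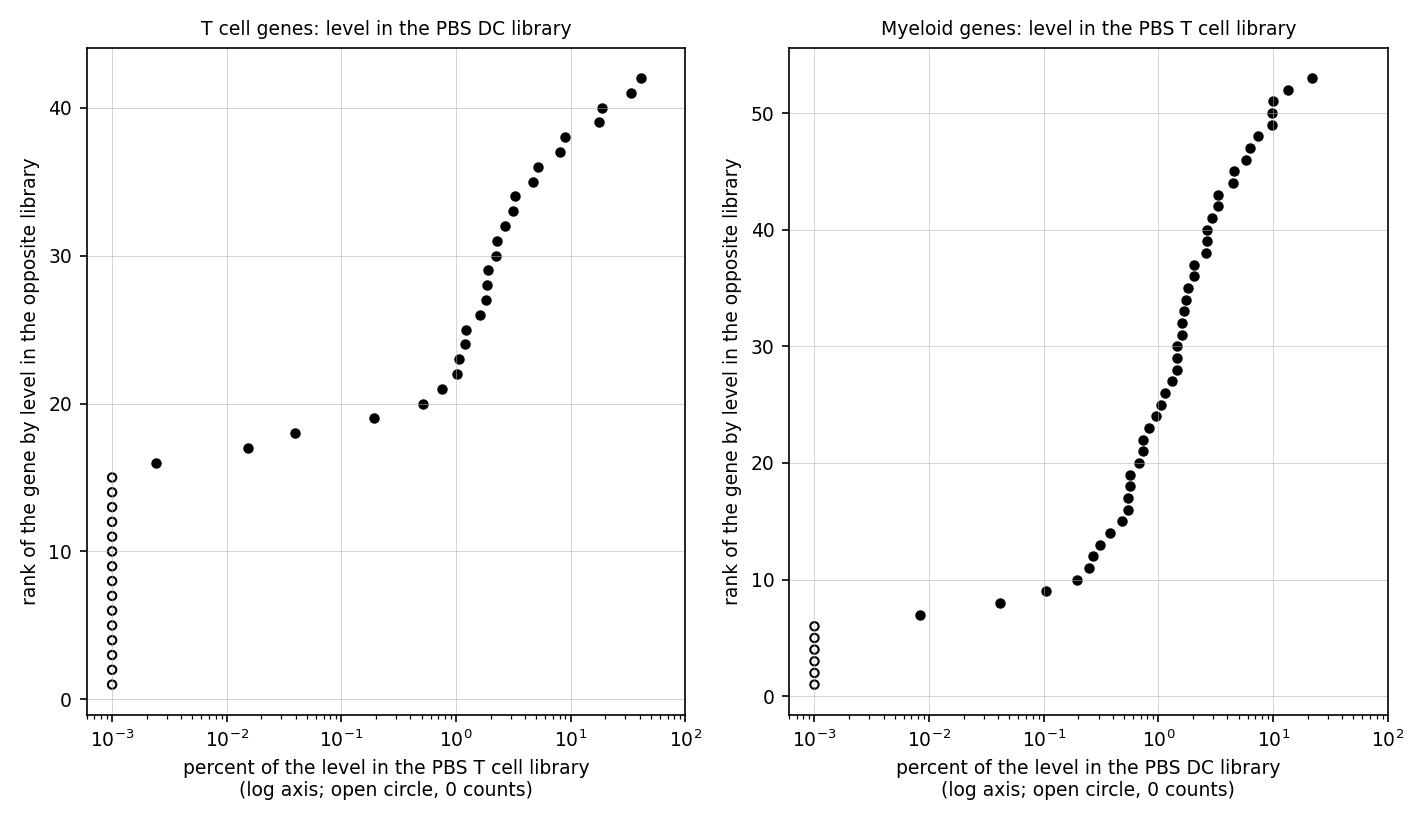
For each T cell gene (left panel) and myeloid gene (right panel) called at home with at least 1000 counts there, the horizontal log axis gives its level in the opposite PBS library as a percent of its level in its own. Genes are ordered by that value on the vertical axis, with open circles for genes with 0 counts. The values run from 0 to 41.0% for the 42 T cell genes and from 0 to 21.8% for the 53 myeloid genes, and 15 T cell and 6 myeloid genes are at 0.

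Markers of further cell types were low or uneven, and whether such cells bear on the values above was not tested. Neutrophil genes summed to 265 CPM in the DC library and 10.1 in the T cell library. Of 15 members 10 had 0 counts in the DC library, Ly6g, the marker used to sort these cells, had 0 in both, and S100a9 had 0 and 1 counts. All 5 neutrophil genes compared were higher in the DC library, led by Clec4d, a lectin that macrophages also express, with 3805 and 115 counts. B cell genes summed to 63.4 and 2.90 CPM. Cd79b gave most of the DC sum, while Ms4a1, Pax5, Cr2 and Bank1 had 0 counts in both libraries. Plasma cell genes summed to 674 and 278 CPM, led by the factor Xbp1, which many secreting cells use, while Jchain, of plasma cells proper, had 150 and 89 counts.

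NK cell genes gave 5 T and 3 DC calls of 8 and summed to 1957 and 923 CPM, of which Tyrobp, a general myeloid adaptor, gave 1815 and 81.4. Ncr1, the NK receptor NKp46, and Klra8 had 0 counts in both libraries, and Klre1, a receptor that CD8 T cells also carry, had 137 and 8159 counts. The NK calls for the DC library were Tyrobp, Klrb1b with 1639 and 319 counts and Klra4 with 738 and 146 counts, the last from a family of near-identical copies. Of 6 gamma-delta T cell genes sought, 2 were among the listed genes: Sox13 had 1 DC count and Blk had none. The other members, antigen receptor genes, were not found among the listed genes under the symbols sought.

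Fibroblast genes were measured in both libraries, with 5 of 11 called for neither. The collagen gene Col3a1 had 1113 and 1041 counts and the matrix gene Dcn had 1204 and 1044 counts, whereas Pdgfra, Lum and Fap had 0 in both libraries. Thy1, which mouse T cells also express, had 156 and 39749 counts and made up most of the list's T cell sum of 1984 CPM, against 242 CPM in the DC library. Postn and Col6a1, matrix proteins, were called for the DC library, with 284 and 32 counts and 219 and 118 counts. Haemoglobin genes of erythroid cells summed to 278 and 373 CPM, with Hba-a1 at 3819 and 5053 counts, Hbb-bs at 1048 and 2233 counts and 3 of 4 called for neither.

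Epithelial genes that MC38 tumour cells could bring summed to 44.5 and 11.2 CPM. Krt8 and Krt19, keratins, had 0 in both libraries, and Krt18 had 0 and 89 counts. Epcam had 219 and 0 counts and Cdh1, E-cadherin, had 662 and 19 counts, both higher in the DC library. Endothelial genes summed to 61.4 and 22.9 CPM, mostly from Pecam1, which leukocytes also express, with 960 and 448 counts, and Cdh5, Tie1 and Tek were at 0 in both. Mast cell and basophil genes summed to 24.6 and 38.1 CPM, with 10 of 12 members at 0 in the DC library, and the proteases Cma1 and Mcpt8 had 0 and 388 counts and 0 and 296 counts. Platelet genes summed to 439 and 75.3 CPM, mostly from Pf4, which macrophages also make, with 8375 and 925 counts, and Gp9, Gp1ba and Gp1bb were at 0 in both.

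The treated pair, which shares no library with the PBS pair, gave a second reading of the same contrast. There 10606 genes were compared, 3295 (31.1%) were higher in the treated DC library and 4599 (43.4%) in the treated T cell library. Of the PBS DC calls also tested there 50.2% had the same call and 27.3% the opposite one, against 30.3% of all genes tested in both pairs called for the treated DC library. Of the PBS T calls 58.6% had the same call and 19.6% the opposite one, against 42.8% of all. Read the other way, 36.1% of treated DC calls and 41.9% of treated T calls had the same PBS call. Among genes at least 64-fold apart in the PBS pair, 247 of 298 DC genes (82.9%) and 338 of 438 T genes (77.2%) had the same call.

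Some lists had the same direction in both pairs and others did not. Class II genes had 11 of 12 calls for the treated DC library and a median of 5.03 there beside 7.77 in the PBS pair, and H2-Oa was the member called for the treated T cell library. Cytotoxic genes had 20 of 20 calls for the treated T cell library and a median of -6.27. Macrophage genes had 17 of 19 calls for the treated DC library, with a median of 3.85. Flt3 had 69 and 0 counts in the treated DC and T cell libraries and Zbtb46 had 57 and 0, so both DC genes, low as they were, lay on the DC side there. In the treated DC library Cd3g had 1 count and Cd3d 812, beside 576 and 434 in the PBS DC library. The conventional DC list went from a median of -0.41 in the PBS pair to 3.02 in the treated pair, the NK list from -4.64 to -0.42, and the phagocyte oxidase from 2.19 to -0.25. Of 14 inflammatory genes tested in the treated pair 8 were higher in the DC library and 3 in the T cell library. Of the 15 most abundant genes shared by the PBS libraries, 7 were called for the treated DC library and 4 for the treated T cell library. Among them were Tmsb4x at a log2 ratio of 2.81 and Pfn1 at -4.57. Of all genes compared in the treated pair 31.1% and 43.4% had these calls, so most genes of any kind were called there. Pan-leukocyte genes had a median of -0.64 in the treated pair. These differences between pairs were not tested, as each pair has 1 library per preparation.

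**Figure D5:**
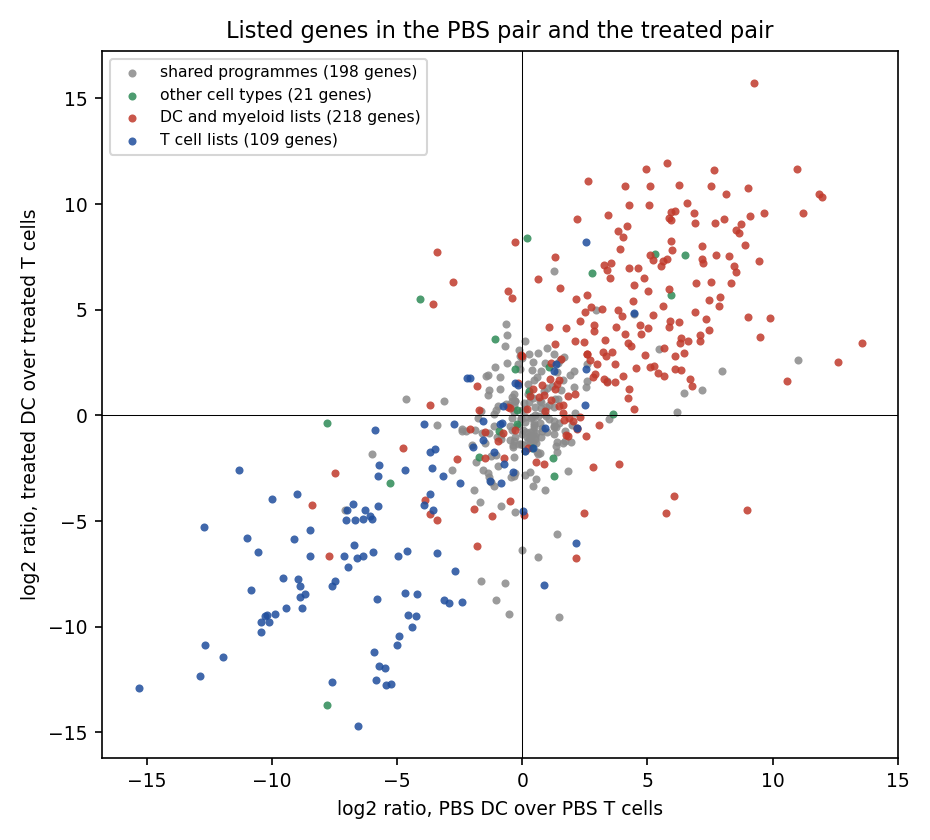
Log2 ratios of DC over T counts in the PBS pair (horizontal axis) and the treated pair (vertical axis) for list genes tested in both, coloured by the kind of list. The sign was the same in both pairs for 97 of 109 genes of T cell lists and 183 of 218 of DC and myeloid lists, and for 105 of 198 genes of shared programmes.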

How the data were processed

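Bulk RNA was sequenced from DC and CD3+ T cell preparations of MC38 tumours, with 1 library per preparation and treatment. The authors deposited 1 table per cell type with read counts, FPKM and a listed length for each gene, per the file headers. The build GRCm39 and, of tools, RSEM 1.2.12, HISAT2 2.0.4, R 3.3.1 and DESeq2 1.24.0 are named in the submitters' processing notes, without the role of each. The deposited FPKM equal counts per listed length and total. The tables hold 4 further per-sample columns of 2 libraries that were not used. The titles number the PBS libraries 2 and the descriptions number them 1, and the descriptions were followed because the columns carry that number.

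Both tables list the same 21959 genes, of which 51 have no symbol and 44 share one. Counts were scaled by TMM (edgeR 4.0.16 in R 4.3.3), with factors of 0.833 for the DC and 1.20 for the T cell library. Ratios, intervals, lists and promoter motifs were computed in Python 3.11.15 with pandas 2.3.3, numpy 2.4.6 and scipy 1.17.1, and drawn with matplotlib 3.10.9. DESeq2 1.42.0 gave size factors for 1 alternative. The ratio method was tested on simulated data. Count depth sets the precision. On the TMM scale of the other CPM values, 3 counts equal 0.151 CPM in the DC and 0.134 CPM in the T cell library. By total counts alone, 3 counts equal 0.126 CPM in the DC and 0.161 CPM in the T cell library. With 1 library per group no test across samples exists.

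The genes compared and the 50 lists (672 genes, 660 in the tables, 580 compared, 419 called) were chosen with earlier results of these data known. Genes named were the 15 furthest each way by the interval bound nearer 0, the 15 most abundant shared genes, the 10 most abundant of each library, the 4 most abundant of each list, every member of a list of 8 or fewer and those called against their list's majority. Lineage markers and the most abundant genes of the opposite preparation were added by the same rule. Other members named for their role, such as Zap70, Ifng, Havcr2, Tcf7, Ciita, H2-Oa, Tlr7 and Nlrp3, were chosen after their values were seen. The minimum of 1000 counts for genes read in the opposite library was also set after the data were seen. In all, 12 alternatives were run. Protein sequences that had been planned were not used here. A few list members are not reported here by name.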

Additional observations from a re-analysis of the deposited data

Results flagged for a closer look

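Of 267 genes named by rule, 159 were called in both pairs, and 12 of these were called for opposite libraries in the PBS and the treated pair. Among all genes tested in both pairs, 27.3% of PBS DC calls and 19.6% of PBS T calls had the opposite call in the treated pair. Those percents also count genes called for neither in the treated pair, unlike the 159. Of all genes called in both pairs, 646 PBS DC calls were opposite and 1190 the same. For PBS T calls, 645 were opposite and 1925 the same. The values are log2 ratios of DC over T counts, first in the PBS pair and then in the treated pair. The difference between pairs was not tested, since each pair has 1 library per preparation.

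The genes on the DC side in PBS and on the T cell side after treatment were Btla (2.16 and -6.05), the phosphatase gene Dusp1 (1.38 and -1.25), Ifi35 (1.39 and -1.75), the adhesion molecule gene Pecam1 (1.28 and -2.85), the mitotic kinase gene Plk1 (1.39 and -5.61) and the secretory factor gene Xbp1 (1.23 and -1.99). Dusp1 rested on deep counts, 56682 and 24597 in the PBS pair and 7395 and 36215 in the treated pair.

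The genes on the T cell side in PBS and on the DC side after treatment were Ccl3 (-1.82 and 1.37), Fabp4 (-2.76 and 6.32), Fscn1 (-3.39 and 7.75), Jun (-1.37 and 1.89), Ndufa4 (-1.44 and 1.86) and Zbtb46 (-3.56 and 5.29). Fabp4 had 23 T cell counts in the PBS pair and 117 DC counts in the treated pair, with 0 in each opposite library.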

How the results depend on the processing

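No paired analysis was possible because each group has 1 library, and for the same reason no replicate could be left out. The 12 alternatives were read for a part of the named genes only, fewer than the 267 named by rule. No gene of that part reversed. Of its values 2421, from 215 genes, stayed on the same side of the threshold, 50 passed it newly and 47 fell back. Whether the calls of the other named genes hold under the alternatives was not tested. With a 4-fold threshold, 1750 genes were higher in the DC library and calls shared with the treated pair were 1860 (3115 at 2-fold), pan-leukocyte T calls were 3, and proliferation genes gave 0 DC and 0 T calls. With 20 counts required in both libraries, 2108 genes were higher in the T cell library, calls shared with the treated pair were 1162, and calls were 2 for the TCR complex, 11 for TCR signalling, 9 for cytotoxic effectors, 4 for cDC1, 9 for inflammatory cytokines and 10 for interferon-stimulated genes, because members at 0 leave. Proliferation calls were 1 DC and 16 T with total counts and with FPKM, and 6 T when centred on the median of all genes. The medians of mast cells, fibroblasts, epithelial, pan-leukocyte, housekeeping, oxidative phosphorylation, actin and immediate-early genes changed sign under at least 1 setting, that of mast cells from -2.77 to 1.94. DESeq2 size factors gave 3006 DC and 3864 T calls.
Depth limits the genes near the floor: a gene at 0 in 1 library has a bound and no ratio, and with 1 library per group no value here measures the spread between animals.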

Other observations

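Gene families outside the lists were gathered by symbol stem after their values were seen. All 8 Gimap genes, GTPases that support lymphocyte survival, were higher in the T cell library, and the median of their log2 ratios was -6.81. Gimap3 had 451 counts in the DC library and 14194 in the T cell library, and Gimap6 had 147 and 11783. The Lilr and Pira genes, paired Ig-like receptors of myeloid cells with near-identical copies, were higher in the DC library in 7 of 7 cases, with a median of 5.73. Of 6 Cd300 genes, lipid-binding receptors of myeloid cells, 5 were higher in the DC library, among them Cd300c2 with 7250 and 184 counts. The Ms4a genes divided: 7 of 10 were higher in the DC library and 2 in the T cell library, where Ms4a4b, a T cell member, had 1157 and 44751 counts.

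Of 15 subunits of the V-type ATPase, the pump that acidifies lysosomes, 11 were higher in the DC library and 1 in the T cell library, with a median of 1.69, and Atp6v0c had 28049 and 4396 counts. Of 248 Zfp zinc finger genes 134 were higher in the T cell library and 47 in the DC library, a share on the T cell side beside 34.8% of all genes compared. Of 37 Trim genes, mostly ubiquitin ligases, 22 were higher in the T cell library and 3 in the DC library. Of 18 Dusp phosphatase genes 10 were higher in the T cell library and 2 in the DC library, and Dusp2 had 62 and 4465 counts. Beside these families, 34.8% of all genes compared were higher in the T cell library and 25.6% in the DC library.

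The listed length of genes called for the DC library had a median of 3959.5 bases, that of genes called for the T cell library 5087, and that of genes called for neither 4295.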
